A study of Rattus norvegicus with 6 samples.

Results

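*Nfe2l2* encodes NRF2, a transcription factor that switches on defences against oxidants and reactive chemicals, and it was examined here with its repressor gene *Keap1* and 8 genes that NRF2 is known to activate: *Nqo1*, *Hmox1*, *Gclc*, *Gclm*, *Txnrd1*, *Srxn1*, *Gsr* and *Osgin1*. These 10 genes are a list of names with no limit on their values, drawn up with earlier results of these data known, and all 10 were among the 17315 gene rows of the RNA-seq tables. Of these, 9 had a mean level of at least 1 TPM (a level corrected for transcript length and for the size of the library) over the samples and were tested, whereas *Osgin1* lay below that level in every sample and was described only.

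The cells were adult rat hippocampal neural stem cells (NSCs) of the cloned line HCN. The siDerl1 cells had been transfected with a Stealth duplex against *Derl1* and the siControl cells with a control duplex. *Derl1* is the gene of Derlin-1, an endoplasmic reticulum membrane protein that takes part in the disposal of misfolded proteins. Each group had 3 samples, numbered 1 to 3 in the labels, and all 6 had been kept with BMP4 for 2 days to bring about quiescence, so that BMP4 was common to both groups and no proliferating sample was compared. Each group rested on a single duplex, and the comparison asks what lowering *Derl1* does to gene expression in NSCs on their way to quiescence.

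In unstressed cells KEAP1 holds NRF2 and hands it to a ubiquitin ligase, so that NRF2 is made and destroyed continuously. Oxidants modify KEAP1, after which NRF2 accumulates, pairs with a small MAF protein and binds antioxidant response elements near its target genes. NRF2 is thereby regulated mainly as a protein, and in RNA data it is followed through its targets. In neural stem cells, as in other cells, these targets supply glutathione, reduced thioredoxin and enzymes that detoxify quinones and heme.

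*Derl1* (NM_001014202) was at 122, 132 and 128 TPM in siControl samples 1, 2 and 3 and at 44.9, 70.8 and 74.0 TPM in siDerl1 samples 1, 2 and 3, so the targeted gene was lower in every siDerl1 sample. The samples numbered 1 of both groups stood apart from the other 4 before any NRF2 gene was considered. The first principal component held 55.7% of the variance of the 10331 genes tested and set both samples numbered 1 on one side. All 8 NSC markers examined were at or above 1 TPM, led by *Vim* with a mean of 4304 TPM, whereas 0 of 6 endothelial and mural markers and 2 of 10 microglial markers reached that level, and *Cx3cr1*, *C1qa* and *C1qb* were listed at 0. Of 7 neuron markers, 4 reached 1 TPM, led by *Tubb3* with a mean of 73.3 TPM, and the list summed to 106 to 134 TPM. The endothelial and mural sum was 0.9 to 0.98 TPM in siControl and 1.59 to 2.01 TPM in siDerl1 samples, and its part in the results was not tested. The summed level of the NSC markers was 3995 to 4420 TPM in the samples numbered 1 and 5554 to 5878 TPM in the other 4. The 6 astrocyte markers, led by *S100b* with a mean of 536 TPM, summed to 780 to 824 TPM in the samples numbered 1 and to 566 to 597 TPM in the others. The 6 oligodendrocyte markers, with *Mog* listed at 0, summed to 2058 to 2245 TPM against 1730 to 1993 TPM.

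The antioxidant response element has the core letters TGACNNNGC, which were looked for on both strands of the RefSeq promoter windows of assembly GRCr8, each 300 bases long and running from 250 bases before a start site to 50 after it. For 8 of the 10 genes there were 9 windows, and *Hmox1* and *Gsr* were without one. The core letters were present in 3 of the 9 windows, those of *Gclm*, *Nfe2l2* and 1 of the 2 windows of *Txnrd1*, while 4038 of all 33469 rat windows (12.1%) held them. The stretches around the matches that lay before the start site are shown to let the letters be read in their surroundings, *Gclm* at chr2:213031938-213031996 on the plus strand and *Txnrd1* at chr7:22755949-22756007 on the minus strand, each 5′ to 3′ along its gene with the core in capitals.
Gclm: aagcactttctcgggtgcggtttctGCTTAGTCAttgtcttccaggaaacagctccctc
Txnrd1: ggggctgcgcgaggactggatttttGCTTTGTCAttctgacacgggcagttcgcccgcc
In both, the core runs on the strand opposite to the gene, read there as TGACTAAGC in *Gclm*, at bases -172 to -164 from the start site, and as TGACAAAGC in *Txnrd1*, at bases -78 to -70. The match of *Nfe2l2* lay behind its start site, at bases 38 to 46 of the transcribed side. A match of letters is a description of the window and no measure of NRF2 binding, and elements farther away were outside the windows.

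The levels of the 10 genes differed widely among themselves, from 171 TPM on average for *Txnrd1* down to 0.197 TPM for *Osgin1*. *Txnrd1* stood at the 90.4th percentile of all tested genes, *Hmox1* (105 TPM) at the 82.3rd, *Gclm* (72.4 TPM) at the 74.0th and *Nfe2l2* itself (56.2 TPM) at the 66.5th. *Gsr* followed with 39.1 TPM, *Keap1* with 33.2, *Nqo1* with 29.3, *Gclc* with 28.4 and *Srxn1* with 6.16, the last at the 13.5th percentile. In this order the ranges over the 6 samples overlapped between *Hmox1* and *Gclm*, between *Keap1* and *Nqo1*, and between *Nqo1* and *Gclc*. These neighbours could not be ordered beyond their spread, whereas the ranges of all other neighbours were separate. Genes farther apart could overlap too, as did *Hmox1* (from 57.6 TPM) with *Nfe2l2* (up to 64.8 TPM) and *Nqo1* (up to 44.8 TPM) with *Gsr* (from 36.3 TPM). The coefficient of variation over the 6 samples was 3.64% for *Txnrd1*, 4.53% for *Keap1* and between 6.86% and 10.4% for *Gclm*, *Gsr*, *Gclc*, *Nfe2l2* and *Srxn1*, but 31.6% for *Hmox1* and 40.2% for *Nqo1*, and 77.6% for *Osgin1*, whose values were near 0.

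**Figure D1:**
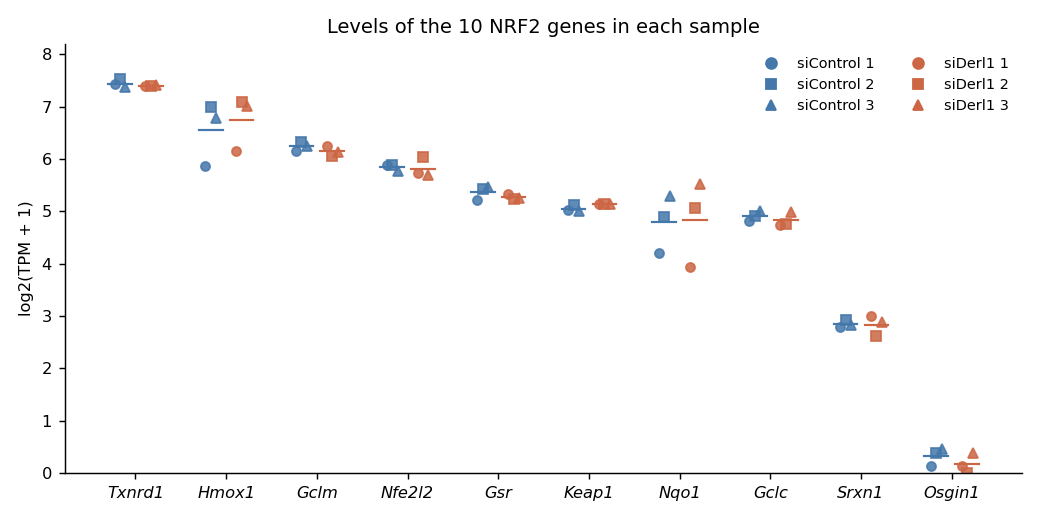
Level of each of the 10 NRF2 genes in every sample, on log2(TPM + 1), with genes ordered by mean level. Blue marks are siControl and orange marks siDerl1 samples, the mark shape gives the sample number and short bars the group mean. *Hmox1* and *Nqo1* spread most, with both samples numbered 1 lowest, and *Osgin1* lies near 0.

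No common shift of the NRF2 genes was detected between siDerl1 and siControl cells. Of the 9 tested, 3 had a higher and 6 a lower mean in siDerl1 cells, with a median difference of -0.03 on log2(TPM + 1) and a range of -0.10 to 0.21, while the median over all genes tested was -0.02, with 4674 higher and 5657 lower. With limma and Benjamini-Hochberg adjustment over all genes, 0 of the 9 passed an adjusted p of 0.05, as did 0 of all 10331 genes (0%). At an unadjusted p of 0.05, 0 of the 9 passed, against 692 genes (6.7%). Groups that did not overlap were found for 1 of the 9, *Keap1*, or 11.1%, against 1406 of all genes (13.6%).

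Samples of the same number deviated together in both groups, most clearly those numbered 1. Numbers 2 and 3 were less clearly matched, as the deviations of siControl 2 correlated by 0.353 with siDerl1 2 and by 0.345 with siDerl1 3. The comparison was also made within numbers, with the replicate number as a block. Then 57 genes (0.552%) passed an adjusted p of 0.05, and again 0 of the 9 NRF2 genes. At an unadjusted p of 0.05 with the block, 1 of the 9 passed, *Hmox1*, against 1624 genes (15.7%). All 3 siDerl1 samples lay on the same side of the siControl sample of their number for 3 of the 9, *Keap1*, *Hmox1* and *Gclc*, and for 3910 of all genes (37.8%). None of these shares of the NRF2 genes exceeded the share among all genes. The labels do not say whether the 3 samples of a group were separate cultures, so the p-values measure the spread between these samples, and in bulk RNA fewer cells of a type and less RNA per cell cannot be told apart.

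**Figure D2:**
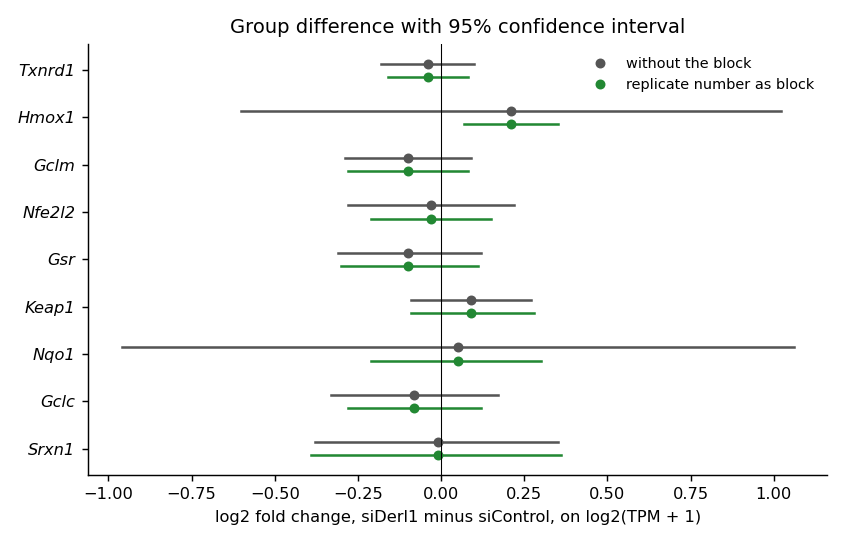
Difference of siDerl1 minus siControl for the 9 tested NRF2 genes on log2(TPM + 1), with 95% confidence intervals from limma, without (grey) and with (green) the replicate number as a block. The intervals include 0 for all genes but *Hmox1* with the block, and those of *Hmox1* and *Nqo1* narrow most with it.

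*Nfe2l2* (NM_031789), the gene of NRF2, was at 58.4, 58.1 and 53.3 TPM in siControl samples 1, 2 and 3 and at 51.9, 64.8 and 50.7 TPM in siDerl1 samples 1, 2 and 3. The highest and the lowest value were both in siDerl1 cells, and the groups overlapped throughout. The means were 56.6 ± 2.86 and 55.8 ± 7.79 TPM (SD, n = 3 each), a difference of -0.03 on log2(TPM + 1) with a 95% interval of -0.28 to 0.22 (adjusted p = 0.974, limma). The amount of NRF2 protein was not measured in these data.

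*Keap1* (NM_057152), the repressor that presents NRF2 for degradation, was at 31.4, 33.9 and 31.2 TPM in siControl samples and at 34.4, 34.4 and 34.2 TPM in siDerl1 samples. Every siDerl1 sample lay above every siControl sample, the single NRF2 gene of which this was true, and siDerl1 samples were close to each other. The means were 32.2 ± 1.51 and 34.3 ± 0.0929 TPM (SD, n = 3 each), and the difference of 0.09 (95% interval -0.09 to 0.27) had an adjusted p of 0.875 by limma, or 0.634 with the replicate number as a block. The separation thus came with a small difference that did not pass the test.

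The glutamate-cysteine ligase genes encode the 2 subunits of the enzyme that limits glutathione synthesis. *Gclc* (NM_012815), the catalytic subunit, was at 27.3, 28.9 and 31.3 TPM in siControl samples and at 25.8, 25.9 and 30.9 TPM in siDerl1 samples. *Gclm* (NM_017305), the modifier subunit whose window holds the core letters printed above, was at 69.8, 79.4 and 75.5 TPM in siControl and at 74.8, 65.9 and 69.2 TPM in siDerl1 samples. The groups overlapped for both genes, and *Gclm* was higher in siDerl1 than in siControl for number 1 but lower for numbers 2 and 3. The differences on log2(TPM + 1) were -0.08 for *Gclc* (95% interval -0.33 to 0.17, adjusted p = 0.934) and -0.10 for *Gclm* (-0.29 to 0.09, adjusted p = 0.866, limma), the latter having the smallest unadjusted p of the 9, 0.266. With numbers 2 and 3 alone the *Gclm* difference was -0.19, with an unadjusted p of 0.0394 and an adjusted p of 0.43 by limma.

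The ratio of *Gclm* to *Gclc* TPM, a value within each sample, was 2.56, 2.75 and 2.41 in siControl samples and 2.90, 2.54 and 2.24 in siDerl1 samples. Both the highest and the lowest ratio were in siDerl1 cells. The means were 2.57 ± 0.172 and 2.56 ± 0.331 (SD, n = 3 each), and the log2 ratios differed by -0.01 (exact permutation test, two-sided p = 0.9, where 3 against 3 samples cannot go below 0.1).

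*Gsr* (NM_053906) encodes glutathione reductase, which returns oxidized glutathione to its reduced form. It was at 36.3, 42.2 and 43.1 TPM in siControl samples and at 39.2, 36.9 and 37.1 TPM in siDerl1 samples. The siDerl1 values lay between the lowest and the highest siControl value. The means of 40.5 ± 3.72 and 37.7 ± 1.3 TPM (SD, n = 3 each) differed by -0.10 on log2(TPM + 1), with a 95% interval of -0.31 to 0.12 and an adjusted p of 0.89 by limma.

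*Txnrd1* (NM_031614), the cytosolic thioredoxin reductase, was the most abundant NRF2 gene in each sample and had the lowest coefficient of variation over the 6 samples. It was at 171, 183 and 166 TPM in siControl samples and at 168, 167 and 170 TPM in siDerl1 samples, the latter within the siControl range. The difference was -0.04 with a 95% interval of -0.18 to 0.10 (adjusted p = 0.939, limma), the narrowest interval of the 9 genes. *Srxn1* (NM_001047858), sulfiredoxin, which repairs overoxidized peroxiredoxins, was at 5.89, 6.55 and 6.10 TPM in siControl and at 6.98, 5.10 and 6.36 TPM in siDerl1 samples. As for *Nfe2l2*, siDerl1 cells held both the highest and the lowest value, and the difference was -0.01 (95% interval -0.38 to 0.35, adjusted p = 0.99, limma), on a scale that understates changes of low genes.

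*Nqo1* and *Hmox1* differed more between sample numbers than between siControl and siDerl1. *Nqo1* (NM_017000), the quinone reductase often read as a sign of NRF2 activity, was at 17.4, 28.7 and 38.1 TPM in siControl samples 1, 2 and 3 and at 14.3, 32.5 and 44.8 TPM in siDerl1 samples 1, 2 and 3. Both samples numbered 1 were lowest, both numbered 3 highest, and the groups overlapped over nearly their whole range, in which the highest value was 3.13 times the lowest. The group difference was 0.05 with a 95% interval of -0.96 to 1.06 (adjusted p = 0.989, limma), and with the replicate number as a block the interval was -0.21 to 0.30 (adjusted p = 0.876). Within numbers the log2 difference of siDerl1 minus siControl was -0.26 for number 1, 0.18 for number 2 and 0.23 for number 3.

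*Hmox1* (NM_012580), heme oxygenase 1, which opens the heme ring and releases iron, carbon monoxide and biliverdin, was at 57.6, 126 and 109 TPM in siControl samples and at 70.0, 135 and 129 TPM in siDerl1 samples. The samples numbered 1 were lowest again, but here the siDerl1 sample was above its siControl counterpart for every number, by 0.28, 0.10 and 0.25 on log2(TPM + 1). The means were 97.6 ± 35.8 and 112 ± 36.2 TPM (SD, n = 3 each), and the difference of 0.21 had a 95% interval of -0.60 to 1.02 without the block (adjusted p = 0.947, limma) and of 0.07 to 0.35 with it. The blocked fit gave an unadjusted p of 0.00826 and an adjusted p of 0.167, so *Hmox1* did not pass, and over the alternatives tried its adjusted p lay between 0.167 and 0.998. With numbers 2 and 3 alone the difference was 0.17, with an unadjusted p of 0.0831 by limma.

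Within groups, the mean of numbers 2 and 3 exceeded number 1 on log2(TPM + 1) by 0.89 in siControl and 1.36 in siDerl1 for *Nqo1*, and by 1.01 and 0.91 for *Hmox1*. For the other 7 tested NRF2 genes this difference lay between -0.25 and 0.23, and for 4 of them, *Nfe2l2*, *Gclm*, *Srxn1* and *Gsr*, it had opposite signs in siControl and siDerl1, while for *Keap1* it was 0.05 and -0.00. Both samples numbered 1 lay outside the range of the other 4 samples for 2 of the 9, *Nqo1* and *Hmox1*, or 22.2%, against 3381 of all genes (32.7%). The NSC marker sum was lower, and the astrocyte and oligodendrocyte marker sums were higher, in the same samples numbered 1, and their part in the *Nqo1* and *Hmox1* values was not tested. Most of the NSC sum was *Vim* and most of the astrocyte sum *S100b*, so these sums need not hold for the other markers of their lists. What the number stands for is not stated in the labels.

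**Figure D3:**
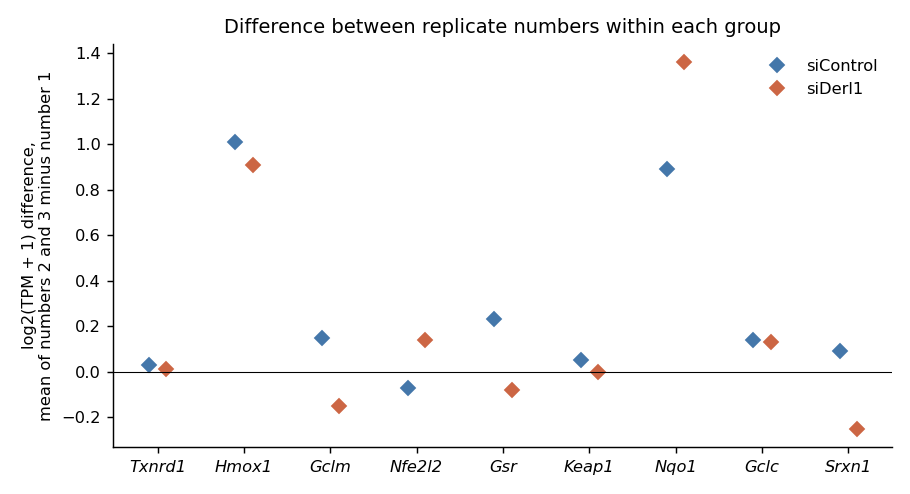
Mean of numbers 2 and 3 minus number 1 on log2(TPM + 1) for the 9 tested NRF2 genes, in siControl (blue) and siDerl1 (orange) cells. *Hmox1* and *Nqo1* lie between 0.89 and 1.36 in both groups, all other genes between -0.25 and 0.23.

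*Osgin1* (NM_138504), an oxidative stress-induced growth inhibitor, was at 0.09, 0.31 and 0.38 TPM in siControl samples and at 0.10 and 0.30 TPM in siDerl1 samples 1 and 3, and was listed at 0 in siDerl1 sample 2. All values were below the limit of 1 TPM, so *Osgin1* was left out of the test, and TPM keep no read depth by which such low values could be judged.

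The genes whose profile over the 6 samples was closest to that of *Nqo1*, the NRF2 gene with the widest range, were *Flvcr2*, *Tm7sf2* and *Ier5l*, among 10330 other genes. Closeness was the root-mean-square distance between log2(TPM + 1) values centred on their mean, which was 0.07, 0.12 and 0.12, while *Nqo1* itself spread by 0.57 around its mean. *Flvcr2* was at 1.07, 2.77 and 3.77 TPM in siControl and at 0.77, 3.14 and 4.13 TPM in siDerl1 samples, lowest in both samples numbered 1 as was *Nqo1*. The scale of log2(TPM + 1) understates changes at such low levels, so the closeness of *Flvcr2* depends on it. For *Gclm*, the gene with the smallest unadjusted p, the closest were *Osbpl5*, *Ltn1* and *Ephb2*, at distances of 0.02, 0.03 and 0.03 beside its own spread of 0.09.

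The wider pathway was taken as 72 further genes of NRF2 control, glutathione, thioredoxin, NADPH, quinone, heme and superoxide metabolism, of which 71 were found and 60 tested, *Nfe2l1* not being analysed here. Their differences had a median of 0.01, with 32 higher and 28 lower in siDerl1 cells. At an unadjusted p of 0.05 by limma, 8 were higher and 4 lower (20% of the 60, against 6.7% of all genes), and 0 passed after adjustment. With the replicate number as a block, 11 were higher and 5 lower (26.7%, against 15.7% of all genes), and 1, *Blvrb*, had an adjusted p under 0.05. Groups that did not overlap were found for 12 (20%, against 13.6%), and the lists were drawn up with earlier results of these data known.

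**Figure D4:**
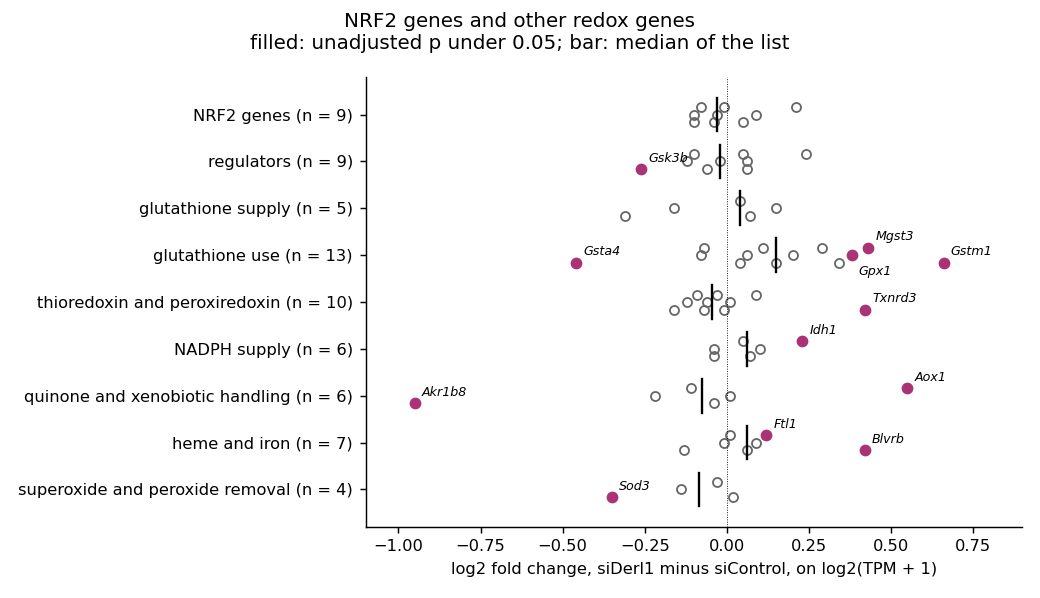
Difference of siDerl1 minus siControl on log2(TPM + 1) for each tested NRF2 gene and each tested gene of the 8 further lists, with the number tested beside each list. Filled, named points had an unadjusted p under 0.05 in limma, and black bars are list medians. The 9 NRF2 genes hold no filled point, and points on both sides of 0 are filled for glutathione use and for quinone and xenobiotic handling.

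Among 9 regulators of NRF2 the median was -0.02, with 4 higher and 5 lower. *Gsk3b*, a kinase that can mark NRF2 for degradation without KEAP1, was at 119 ± 6 TPM in siControl and 99.3 ± 11.9 TPM in siDerl1 cells (log2 difference -0.26 ± 0.10 SE, unadjusted p = 0.0283, adjusted p = 0.704, limma). Within numbers its difference was -0.01, -0.33 and -0.44, and the unadjusted p was between 0.0666 and 0.0927 without siControl 2, siControl 3, siDerl1 2 or siDerl1 3. *Cul3*, the scaffold of the ligase that KEAP1 serves, was at 69.1 ± 1.32 and 66.1 ± 0.115 TPM, and *Rbx1*, its RING subunit, at 311 ± 17.2 and 326 ± 11.3 TPM. The groups did not overlap for *Gsk3b* and *Cul3*, both lower in siDerl1 cells, and overlapped for *Rbx1*.

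Glutathione supply, a list of 5 genes, had a median of 0.04, with none past an unadjusted p of 0.05 in limma with an intensity trend, with or without the block. *Slc7a11*, the cystine carrier, was low at 1.71 ± 0.857 and 1.15 ± 0.564 TPM, a difference of -0.31 with an unadjusted p of 0.401 by limma. This value lay between -0.61 and -0.09 with each sample left out, and was -0.50 with a pseudocount of 0.1. With the block and no trend its unadjusted p was 0.0266 and its adjusted p 0.335 by limma. *Gss*, glutathione synthetase, was at 30.1 ± 6.13 and 33.4 ± 6.36 TPM and *Ggct*, which acts in glutathione breakdown, at 23.4 ± 2.63 and 21.3 ± 6.03 TPM.

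Glutathione use, the list of peroxidases and transferases, had 13 tested genes with a median of 0.15, and 10 were higher in siDerl1 cells. At an unadjusted p of 0.05 by limma, 3 were higher and 1 lower (30.8%, against 6.7% of all genes). With the block, 6 were higher and 1 lower (53.8%, against 15.7% of all genes), and 0 passed after adjustment in either fit. *Gstm1* was at 27.1 ± 5.5 and 44.2 ± 13.8 TPM (0.66 ± 0.22 SE, adjusted p = 0.704, limma), with siDerl1 sample 1 highest at 60 TPM. Without that sample the difference was 0.42, and with numbers 2 and 3 alone it was 0.38, with an unadjusted p of 0.0573 by limma. *Mgst3* was at 15.0 ± 1.42 and 20.6 ± 3.13 TPM (0.43 ± 0.14 SE, adjusted p = 0.704, limma). *Gpx1*, the cytosolic glutathione peroxidase, was at 74.6 and 96.2 TPM on average and is named after its values were seen. Its difference was 0.38 (unadjusted p = 0.0217, adjusted p = 0.704, limma, or 0.119 with the block), and within numbers 0.08, 0.47 and 0.59. *Gsta4*, a transferase that acts on lipid peroxidation products, was on the opposite side, at 34.5, 45.5 and 38.1 TPM in siControl and 24.1, 33.4 and 27.7 TPM in siDerl1 samples. The siDerl1 sample was lower for each number, with differences of -0.50, -0.43 and -0.44 on log2(TPM + 1), and the adjusted p was 0.704 without and 0.0517 with the block. It was 0.165 with the block and no filter, 0.229 with the block and no trend, and 0.308 with numbers 2 and 3 only (limma). Transferase genes have close paralogs, among which the estimation of TPM can split reads, so single members are uncertain.

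The 10 thioredoxin and peroxiredoxin genes had a median of -0.05, with 3 higher and 7 lower. *Txnrd3*, a reductase best known from testis, was at 6.28 ± 0.270 TPM in siControl and 8.73 ± 0.573 TPM in siDerl1 cells without overlap (0.42 ± 0.13 SE, unadjusted p = 0.0134, adjusted p = 0.704, limma). *Prdx1*, an abundant peroxiredoxin under NRF2 control, was at 725 ± 8.42 and 670 ± 69.3 TPM, with an unadjusted p of 0.173 by limma, and *Prdx6* at 112 and 100 TPM on average, with 0.213, or 0.0218 with the block. The difference of *Prdx1* was -0.12, and without siDerl1 sample 1 it was -0.04. Without siDerl1 sample 3 it was -0.19, with an unadjusted p of 0.0294 by limma.

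The 6 genes of NADPH supply had a median of 0.06, and *Idh1*, the cytosolic isocitrate dehydrogenase, was at 136 ± 11.7 and 160 ± 5.80 TPM without overlap (0.23 ± 0.08 SE, adjusted p = 0.704, limma). *Tkt* and *Taldo1*, of the pentose phosphate pathway, differed by 0.07 and -0.04 and did not pass at an unadjusted p of 0.05. Among 6 tested genes of quinone and xenobiotic handling the median was -0.07. *Akr1b8*, an aldo-keto reductase, had the lowest difference of the whole pathway, with 3.58, 5.03 and 4.10 TPM in siControl and 1.12, 1.95 and 2.14 TPM in siDerl1 samples. No siDerl1 sample reached the siControl range, and the difference was -0.95 ± 0.23 SE, with an unadjusted p of 0.00398 and an adjusted p of 0.704, or 0.0828 with the block (limma). With the block its adjusted p was 0.167 with no filter and 0.209 with no trend (limma). *Aox1*, aldehyde oxidase, lay on the other side, at 1.70 ± 0.155 and 2.96 ± 0.254 TPM (0.55 ± 0.18 SE, adjusted p = 0.704, limma). *Akr1b8* and *Aox1* were both low, and their differences depended on the scale, at -1.27 and 0.77 with a pseudocount of 0.1.

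Heme and iron genes act next to *Hmox1*, and here lay the single pathway gene that passed with the block. *Blvrb* (NM_001106236), biliverdin reductase B, which works downstream of heme breakdown, was at 67.2, 66.9 and 80.1 TPM in siControl samples and at 92.4, 93.0 and 102 TPM in siDerl1 samples. The groups did not overlap, and each siDerl1 sample was above the siControl sample of its own number, by 0.45, 0.47 and 0.34 on log2(TPM + 1). The difference was 0.42 ± 0.09 SE, with an adjusted p of 0.669 without and 0.0256 with the block, but 0.116 when the block was fitted without the filter, 0.238 when it was fitted without an intensity trend, and 0.248 with numbers 2 and 3 alone (limma). The light ferritin chain *Ftl1*, which stores iron, was at 2039 ± 19.0 and 2223 ± 16.5 TPM (0.12 ± 0.05 SE, adjusted p = 0.704, limma), and ferritin genes have many near-copies that share reads. *Hmox2*, the constitutive heme oxygenase, was at 37.6 and 34.2 TPM on average, with an unadjusted p of 0.321 by limma.

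Among the 4 genes that remove superoxide and peroxide, *Sod3*, the extracellular superoxide dismutase, was at 163 ± 31.2 and 127 ± 12.1 TPM (-0.35 ± 0.14 SE, unadjusted p = 0.0365, adjusted p = 0.713, limma, or 0.0583 with the block), with overlapping groups. With the block its adjusted p was 0.188 with no filter and 0.284 with no trend (limma). Without siControl sample 1, the highest at 199 TPM, the difference was -0.20 with an unadjusted p of 0.0777, and that p was also above 0.05 without siControl 2, siDerl1 2 or siDerl1 3 (limma). *Sod1*, the cytosolic enzyme, was at 580 and 589 TPM and *Cat*, catalase, at 136 and 123 TPM on average, with unadjusted p-values of 0.764 and 0.147 by limma. The difference of *Cat* was -0.14, and without siControl sample 1 it was -0.23, with an unadjusted p of 0.0124 by limma.

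**Figure D5:**
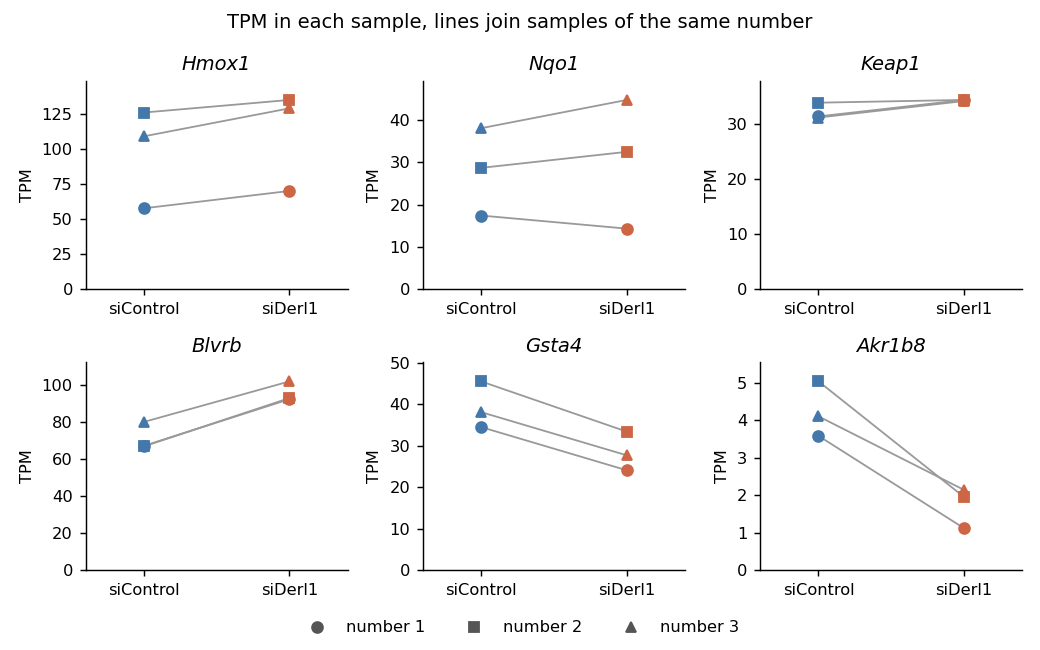
TPM of 3 NRF2 genes (*Hmox1*, *Nqo1*, *Keap1*) and 3 further pathway genes (*Blvrb*, *Gsta4*, *Akr1b8*) in each sample, with lines that join samples of the same number across groups and axes starting at 0. Lines run upward for all numbers in *Hmox1*, *Keap1* and *Blvrb* and downward in *Gsta4* and *Akr1b8*, while number 1 of *Nqo1* runs against numbers 2 and 3.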

How the data were processed

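Total RNA of 6 samples (3 siControl, 3 siDerl1) was made into strand-specific poly(A) libraries. The authors deposited TPM, rounded to 2 decimals and summing to 1000000 per sample, after mapping to rn6. Submitters' processing notes name Trimmomatic 0.39, STAR 2.7.3a and RSEM 1.3.2. The authors tested differences with edgeR 3.28.1, on values not used here. TPM keep no read depth, so depth and counting error are unknown, and as shares of a fixed sum they can shift when abundant genes change. Groups and sample numbers came from sample titles.

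The 10 NRF2 genes, the pathway lists and the marker lists were chosen with earlier results of these data known. log2(TPM + 1) was fitted with limma 3.58.1 in R 4.3.3 (lmFit, eBayes with an intensity trend, two-sided) over 10331 genes that averaged 1 TPM or more, with Benjamini-Hochberg adjustment over all of them. The code was tested on simulated data. Named are all 10 NRF2 genes, *Derl1*, in each list up to 3 genes with the smallest unadjusted p, and 3 genes closest in profile to *Nqo1* and to *Gclm*. The pairing was read from the data: the deviations of same-numbered samples from their group means correlated across genes by 0.697, 0.353 and 0.507 for numbers 1, 2 and 3, all above 0.1. Between different numbers, siControl 2 with siDerl1 3 (0.345) and siControl 3 with siDerl1 2 (0.248) were also positive, and number 1 with 2 or 3 was negative (-0.591 to -0.409). Fits with the replicate number as a block are therefore given where they change a count or the call of a named gene. Alternatives were a pseudocount of 0.1, no filter, an average of 5 TPM or more, median-of-ratios factors, no intensity trend, the block, and each sample left out, and, chosen after seeing the data, numbers 2 and 3 only and the block with no filter or no trend. Promoter windows came from RefSeq (GRCr8), matched by symbol, and no coordinate was moved between builds. The RefSeq identifiers of all 10 genes were found in the GRCr8 table.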

Additional observations from a re-analysis of the deposited data

How the results depend on the processing

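Depth is unknown for TPM, 3 samples a group give wide intervals, and with a sample left out a group of 2 is assumed to vary like the other. The number of genes with an adjusted p under 0.05 was 0 in limma, but 57 with the replicate block, 34 with numbers 2 and 3 only, 2 with the block and no filter, and 0 with the block and no intensity trend; the cause was not tested, and no NRF2 gene was among them. The block brought an adjusted p under 0.05 for *Derl1* (log2 difference -1.03) and *Blvrb* (0.42), and numbers 2 and 3 only for *Derl1* (-0.83). For *Derl1* the adjusted p was 0.104 with the block and no filter and 0.229 with the block and no trend, at the same difference; the block brought no other NRF2 or pathway gene to an adjusted p under 0.05. NRF2 genes with an unadjusted p under 0.05 numbered 0 in limma and 1 with the replicate block (*Hmox1*), 1 with numbers 2 and 3 only (*Gclm*), 1 with the block and no filter and 1 with the block and no trend, where 11.1%, 13.2% and 12.8% of all genes passed. Those with groups that did not overlap numbered 1 to 3 with each sample left out (19.9% to 27.6% of all genes), and 4 with numbers 2 and 3 only (*Keap1*, *Hmox1*, *Gclm*, *Gsr*; 42.8% of all genes), where fewer samples make separation easier. Other pathway genes with an unadjusted p under 0.05 numbered 12 in all samples, where 6.7% of all genes passed. With each sample left out they numbered 5 to 12, where 4.1% to 7.79% of all genes passed. The lowest counts were 5 without siDerl1 2, 6 without siControl 2 and 7 without siControl 3 (4.18%, 4.1% and 4.99% of all genes). Among named pathway genes, *Txnrd3*, *Akr1b8* and *Blvrb* kept an unadjusted p under 0.05 with each sample left out. *Gsk3b*, *Mgst3*, *Gsta4*, *Gstm1*, *Idh1*, *Aox1*, *Ftl1* and *Sod3* lost it at least once, and *Gpx1* was not examined under the alternatives. Other pathway genes past that p numbered 16 with the replicate block, 18 with the block and no filter, 14 with the block and no trend and 13 with numbers 2 and 3 only. Of all genes, 15.7%, 13.2%, 12.8% and 11.1% passed in these fits, and more pathway genes were tested without the filter.

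Of 9 NRF2 genes, 4 kept their sign in all 15 alternatives: *Keap1* (0.07 to 0.13), *Gclc* (-0.16 to -0.03), *Gclm* (-0.19 to -0.05) and *Gsr* (-0.20 to -0.05). Leaving out 1 sample reversed *Hmox1* (-0.13 to 0.51, below 0 without siControl 1), *Nqo1* (-0.29 to 0.50, below 0 without siControl 1, siDerl1 2 or siDerl1 3), *Nfe2l2* (-0.14 to 0.03, above 0 without siDerl1 1 or 3, and 0.04 with numbers 2 and 3 only), *Txnrd1* (-0.07 to 0.0007, without siControl 2), *Srxn1* (-0.10 to 0.10, above 0 without siControl 2 or siDerl1 2), *Ggct* (-0.36 to 0.02, without siDerl1 1), *Gss* (-0.03 to 0.29, below 0 without siControl 1), *Sod1* (-0.02 to 0.09, below 0 without siDerl1 2 or 3) and the log2 *Gclm* to *Gclc* ratio (-0.11 to 0.08, above 0 without siControl 2 or siDerl1 3), none of which had passed an unadjusted p of 0.05 without the block.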
